A study of Rattus norvegicus with 8 samples.

Results

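Annexins and galectins were examined in the outflow veins of rat arteriovenous fistulas (AVFs) wrapped with scaffolds that released β-aminopropionitrile (BAPN), an irreversible inhibitor of lysyl oxidases, or with vehicle scaffolds. The genes Anxa1 to Anxa6, Lgals1, Lgals3, Lgals8 and Lgals9 were taken by gene name from the count files, and each name matched 1 gene. These are 6 annexins and 4 galectins, so 10 of the 32623 genes in the files. The animals were Sprague Dawley rats in which an epigastric vein was joined end to side to a femoral artery, and a bilayer nanofiber scaffold of polylactic acid over poly(lactic-co-glycolic acid) was placed around the vein directly after surgery. The BAPN group held 3 females and 1 male and the vehicle group 2 females and 2 males, all killed at day 21, so that every vein in the comparison had been exposed to a fistula and to a scaffold. No unoperated vein was analysed here. Total RNA of the vein was sequenced, 1 library per rat. The comparison asks how inhibiting lysyl oxidase around the vein changed the levels of these genes.

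Annexins are cytosolic proteins that bind acidic phospholipids of membranes when calcium rises, and they take part in membrane repair, vesicle traffic, anticoagulation and the damping of inflammation. Several of them work as complexes with small calcium-binding S100 proteins. Galectins are lectins without a signal peptide that bind β-galactosides, and they act outside the cell on glycoproteins of the surface and matrix and inside the cell on damaged endosomes and lysosomes. In blood vessels both families are made by macrophages, smooth muscle cells, fibroblasts and endothelial cells, and galectin-3 is widely known as a product of macrophages in fibrotic tissue.

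Total counts ran from 45039451 to 52241007 in the 4 BAPN libraries and from 19548203 to 22442050 in the 4 vehicle libraries, so depth did not overlap between the groups, and treatment cannot be told apart from a technical difference that ran along with depth. Levels are given as CPM (read counts scaled to a common library total with TMM factors), with the libraries always in the order BAPN 1 to 4 and Vehicle 1 to 4. A gene was called when its Benjamini-Hochberg adjusted p (FDR) in edgeR's quasi-likelihood test was below 0.05 over the 11682 genes tested. Smooth muscle and endothelial markers expected of a vein were present in every library, with Acta2 between 375 and 1822 CPM and Vwf between 58.5 and 768 CPM. Transcript lengths were not used, so CPM ranks genes by their reads and not by their transcript levels.

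All 10 genes passed the minimum of a base mean of 100. Anxa2, Anxa5 and Lgals1 were higher in BAPN veins, and no annexin or galectin was called lower. These 3 calls of 10 stand beside 16.8% of all tested genes called in either direction, 7.5% called higher and 9.25% called lower. Groups did not overlap for 5 of the 10 genes (Anxa1, Anxa2, Anxa3, Anxa5 and Lgals1), where the share over all tested genes was 24.7%. The log2 fold change was above 0 for 8 of the 10, against 51.6% of all tested genes. The median log2 fold change was 0.53 over the 10 genes and 0.02 over all tested genes. At an unadjusted p below 0.05 edgeR marked 6 of the 10 and 4184 of all 11682 tested genes, and DESeq2 called the same 6 genes at its own FDR (Anxa1 to Anxa5 and Lgals1), Anxa3 among them as lower, against 27.4% of all tested genes called by DESeq2.

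**Figure D1:**
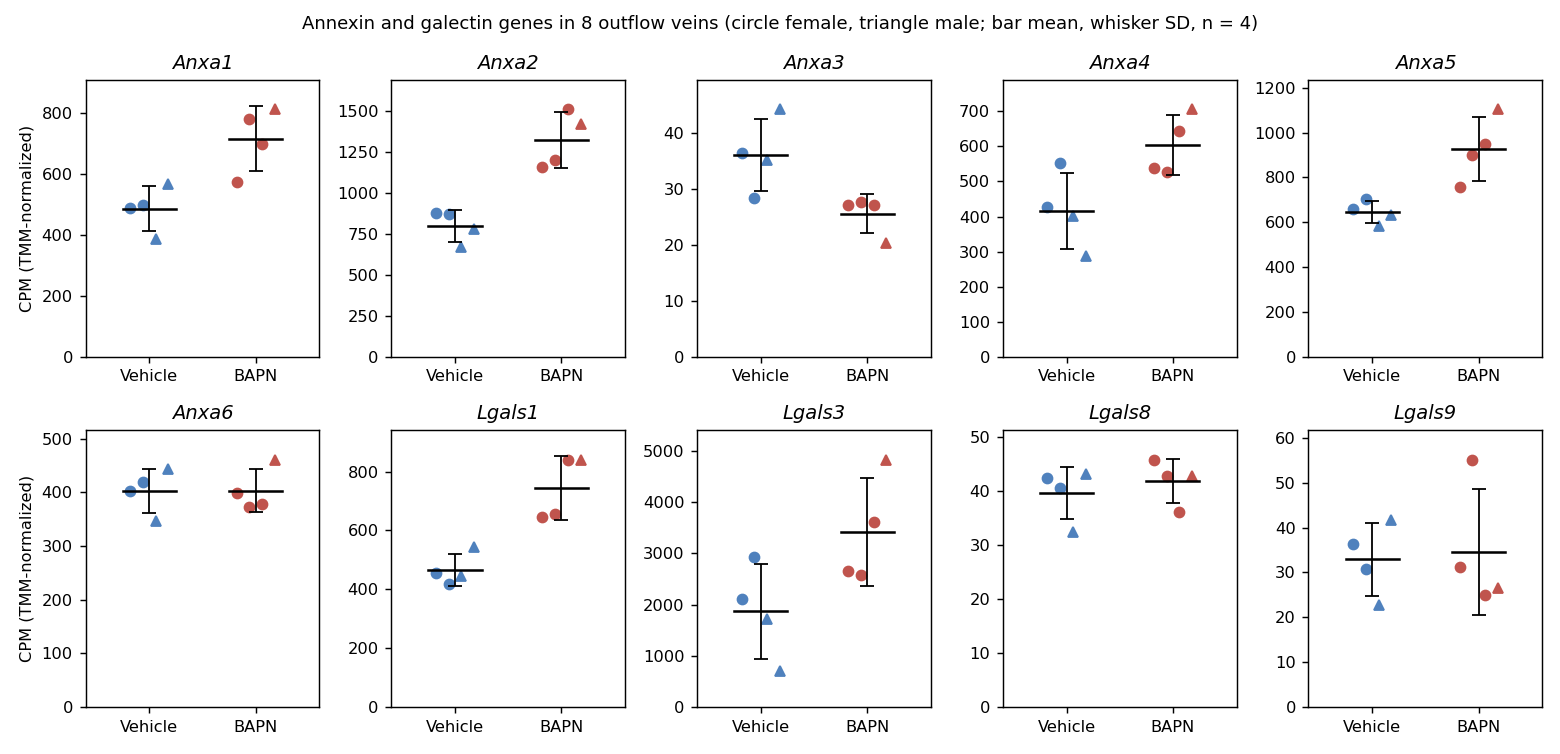
Level of each annexin and galectin in CPM (TMM-scaled, linear axes starting at 0), 1 point per library, circles for females and triangles for males, with the group mean and SD (n = 4 per group). Points of the groups do not overlap for Anxa1, Anxa2, Anxa3, Anxa5 and Lgals1; the vehicle libraries of Lgals3 spread from 707 to 2936 CPM.

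Anxa2, which encodes a membrane and cytoskeleton linker that also serves as a cell-surface receptor for plasminogen and its activator, was the annexin with the smallest FDR. It measured 1157, 1203, 1508 and 1419 CPM in the BAPN libraries and 874, 868, 669 and 779 CPM in the vehicle libraries. The lowest BAPN library was above the highest vehicle library. The means were 1322 ± 169 CPM and 798 ± 95.8 CPM (SD, n = 4 each), a log2 fold change of 0.73 (SE 0.16) that edgeR called at FDR = 0.0218. The exact two-sided permutation test gave p = 0.0286, the smallest that 70 arrangements of 4 against 4 allow. The call was lost when BAPN 3, BAPN 4 or Vehicle 1 was left out (FDR = 0.0545, 0.0534 and 0.0560), with the log2 fold change at 0.66, 0.68 and 0.78.

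Anxa5 encodes the phosphatidylserine-binding annexin that shields exposed membranes from coagulation factors and is used as a probe for dying cells. Its levels were 758, 900.2, 952 and 1104 CPM in BAPN libraries, compared with 661, 704, 585 and 631 CPM with vehicle. The groups did not overlap, and BAPN 1 lay nearest to the vehicle libraries. The means of 929 ± 143 and 645 ± 49.8 CPM gave a log2 fold change of 0.53 (SE 0.15), called by edgeR at FDR = 0.0474. This call stood close to the threshold: it remained in 1 of 8 fits that left out a library (without BAPN 1, FDR = 0.0444), and in the other fits the FDR ran from 0.0518 without Vehicle 2 to 0.114 without BAPN 4.

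The sequences upstream of these called annexins are shown because they are the called members with an entry in the RefSeq promoter table (assembly GRCr8), which matched 7 of the 10 genes and had none for Anxa6, Lgals1 and Lgals3. Each run gives the 250 bases before the annotated transcription start, 5′ to 3′ on the strand of the gene, with motif matches in capitals. The motifs searched on both strands were the TATA box TATAAA, the CCAAT box CCAAT, the GC box GGGCGG and the AP-1 site TGANTCA.
Anxa2, chr8:78986002-78986251, plus strand: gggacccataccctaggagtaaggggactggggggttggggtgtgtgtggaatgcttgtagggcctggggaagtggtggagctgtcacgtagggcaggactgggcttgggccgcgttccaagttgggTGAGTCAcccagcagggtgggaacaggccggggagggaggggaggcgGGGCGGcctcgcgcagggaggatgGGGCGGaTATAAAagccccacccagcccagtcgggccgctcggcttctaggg
Anxa5, chr2:121272697-121272946, minus strand: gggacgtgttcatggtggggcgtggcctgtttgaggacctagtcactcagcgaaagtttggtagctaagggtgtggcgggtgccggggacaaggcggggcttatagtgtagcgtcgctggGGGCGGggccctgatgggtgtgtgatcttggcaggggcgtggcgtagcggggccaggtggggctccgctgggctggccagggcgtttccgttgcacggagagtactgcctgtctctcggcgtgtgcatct
In Anxa2 the AP-1 match began 123 bases, the GC boxes 76 and 52 bases and the TATA box 45 bases before the start, and none of these matches overlapped. In Anxa5 the GC box began 130 bases before the start and was its only match to the 4 motifs. Over 33469 promoter windows of the same length, 12.9% held the TATA box, 34% the CCAAT box, 30.5% the GC box and 6.34% the AP-1 site. Among the other 5 windows, Anxa1 held a TATA box, Anxa3 3 GC boxes, Anxa4 a CCAAT box and a GC box, Lgals8 2 GC boxes and Lgals9 an AP-1 match. Such matches describe letters in these windows.

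Anxa1 encodes a glucocorticoid-induced protein that limits neutrophil entry and promotes the clearance of dead cells. It measured 573, 780, 697 and 812 CPM in BAPN libraries, compared with 489, 497, 387 and 566 CPM with vehicle. BAPN 1 and Vehicle 4 were separated by a narrow gap. The log2 fold change was 0.56 (SE 0.17, means 715 ± 106.5 and 485 ± 73.7 CPM), and edgeR did not call it (FDR = 0.0508), whereas DESeq2 did (FDR = 0.00771). With 1 library left out edgeR called Anxa1 in 1 of 8 fits (without BAPN 1, FDR = 0.0465), and the FDR was 0.0542 to 0.1202 in the other fits.

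Anxa3, an annexin found in endothelial cells and neutrophils, was 27.1, 27.7, 27.1 and 20.3 CPM in BAPN libraries, compared with 36.5, 28.4, 35.1 and 44.2 CPM with vehicle. All vehicle libraries lay above all BAPN libraries, by less than 1 CPM for Vehicle 2. The means were 25.6 ± 3.50 and 36.0 ± 6.47 CPM, with a log2 fold change of -0.50 (SE 0.16) that missed the threshold in edgeR (FDR = 0.0606) and passed it in DESeq2 (FDR = 0.0244). With 1 library left out edgeR called it in 1 of 8 fits (without Vehicle 2, FDR = 0.0317, otherwise 0.0818 to 0.133), and among the females alone the log2 fold change was -0.25 (FDR = 0.364).

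For Anxa4, which binds membranes of secretory epithelia and other cells and slows chloride conductance, the BAPN libraries held 539, 529, 646 and 706 CPM and the vehicle libraries 427, 552, 401 and 288 CPM. Vehicle 2 lay inside the BAPN range. The log2 fold change of 0.54 (SE 0.22) was not called by edgeR (FDR = 0.0962) but was by DESeq2 (FDR = 0.0455), and with 1 library left out edgeR called it in 1 of 8 fits (without Vehicle 2, FDR = 0.0386, otherwise 0.113 to 0.205). Among the females alone it was 0.22 (FDR = 0.508).

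Anxa6, the large annexin with a doubled core that tethers membranes and cholesterol-rich domains, was 398, 374, 378 and 461 CPM in BAPN libraries, compared with 403, 419.9, 347.2 and 444 CPM with vehicle. The groups overlapped, with means of 403 ± 40.1 and 403 ± 41.0 CPM and a log2 fold change of 0.00 (SE 0.13, edgeR FDR = 0.991).

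**Figure D2:**
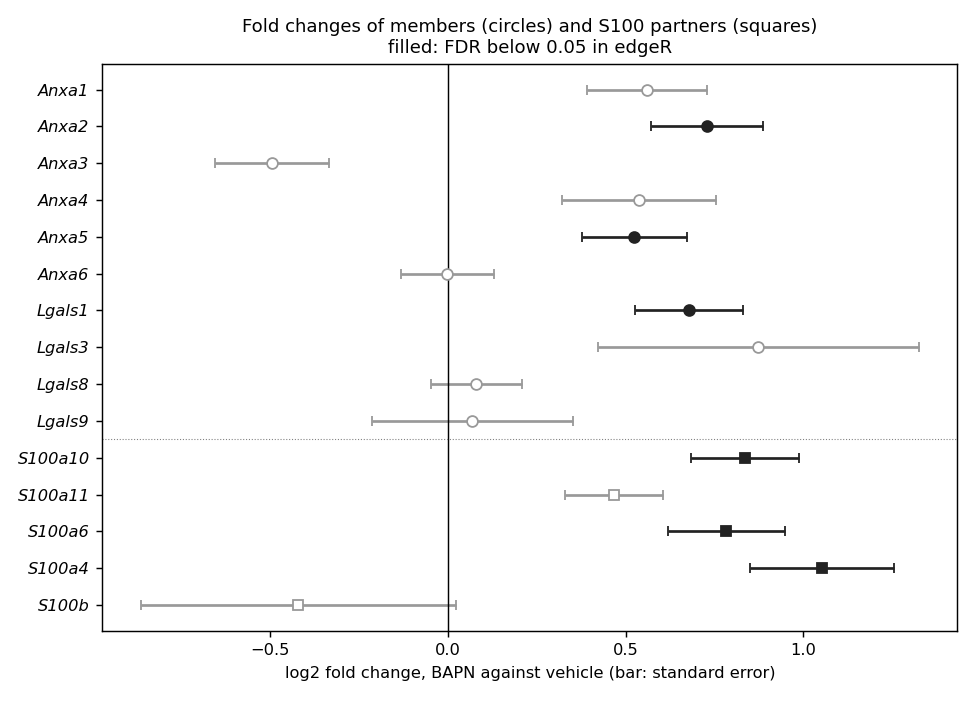
Log2 fold change (BAPN against vehicle) of the 10 genes (circles) and 5 S100 partners (squares), with bars for the standard error and filled symbols for genes called by edgeR. The 10 genes run from -0.50 for Anxa3 to 0.87 for Lgals3; the latter carries the widest error of them (0.45) and was not called, while the called Anxa2, Lgals1 and Anxa5 carry errors of 0.15 to 0.16.

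Among galectins, Lgals1 was called. It encodes galectin-1, a dimeric lectin of mesenchymal cells that binds laminin, fibronectin and integrins and dampens T cells. Its levels were 644, 655, 840.4 and 839 CPM in BAPN libraries, compared with 454, 418, 444 and 543 CPM with vehicle. The groups did not overlap, and BAPN 3 and BAPN 4 stood highest, as they did for Anxa2. The means of 745 ± 110 and 465 ± 54.4 CPM gave a log2 fold change of 0.68 (SE 0.15, edgeR FDR = 0.0243). The call was lost without BAPN 3, BAPN 4, Vehicle 1 or Vehicle 3 (FDR = 0.0614, 0.0606, 0.0707 and 0.0545), while the log2 fold change stayed between 0.61 and 0.67 in these fits.

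Lgals3 encodes galectin-3, which forms pentamers through its own N-terminal tail and is abundant in activated macrophages. It showed the largest log2 fold change of the 10 genes, 0.87, with an SE of 0.45, and was called neither by edgeR (FDR = 0.147) nor by DESeq2 (FDR = 0.0694). It measured 2655, 2585, 3617 and 4830 CPM in BAPN libraries, compared with 2114, 2936, 1711 and 707 CPM with vehicle. Vehicle 2 lay above BAPN 1 and BAPN 2, whereas Vehicle 4 lay far below all other libraries. Without Vehicle 4 the log2 fold change was 0.60 (FDR = 0.190), and without Vehicle 2 it was 1.18 (FDR = 0.0683). Among the females alone it was 0.23 (FDR = 0.631).

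Lgals8 and Lgals9 are tandem-repeat galectins with a pair of carbohydrate-binding domains, and galectin-8 marks ruptured endosomes while galectin-9 binds the T cell receptor Tim-3. Lgals8 was 45.8, 42.8, 36.2 and 42.8 CPM in BAPN libraries and 42.4, 40.6, 32.5 and 43.1 CPM in vehicle libraries (log2 fold change 0.08, SE 0.13, edgeR FDR = 0.674). Lgals9 was 31.3, 55.1, 24.9 and 26.5 CPM in BAPN libraries and 36.3, 30.8, 22.8 and 41.7 CPM in vehicle libraries (log2 fold change 0.07, SE 0.28, edgeR FDR = 0.878). Groups overlapped for both genes, and BAPN 2 held the highest Lgals9. Without BAPN 2 the Lgals9 log2 fold change was -0.26 (FDR = 0.392). Lgals5, a rat gene closely related to Lgals9, held 1.71 ± 0.831 and 2.14 ± 0.386 CPM and was under the minimum. How reads shared between Lgals9 and Lgals5 were counted is not given in the sources used here, so the values of both are uncertain to that extent.

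Ratios within a library do not depend on the scaling between libraries, and 7 were compared by exact permutation tests. The log2 ratio of Anxa5 to Anxa6 was 0.93, 1.27, 1.33 and 1.26 in the BAPN libraries and 0.71, 0.74, 0.75 and 0.51 in the vehicle libraries. It did not overlap between groups and differed by 0.52 (exact p = 0.0286, adjusted p = 0.2 over the 7 ratios). The ratio of Anxa3 to Anxa4 was lower with BAPN by a log2 difference of -1.05, with BAPN 2 at -4.25 inside the vehicle range of -4.28 to -2.70 (exact p = 0.0571, adjusted p = 0.2). Anxa2 to its partner S100a10 differed by -0.10 (exact p = 0.543), with 0.85 to 1.13 in BAPN and 0.77 to 1.34 in vehicle libraries. Lgals3 to Lgals1 was 1.95 to 2.81 in Vehicle 1 to 3 and 0.38 in Vehicle 4, against 1.98 to 2.52 in the BAPN libraries, and the groups differed by 0.32 (exact p = 0.771). This difference was -0.16 without Vehicle 4 and 0.65 without Vehicle 2. The other 3 ratios (Anxa1 to Anxa2, Lgals9 to Lgals8, Anxa4 to Anxa5) differed by -0.17, -0.06 and 0.05 with overlapping groups, and for the latter pair the sign changed with 1 library left out (-0.30 without BAPN 2 to 0.05 without BAPN 4, and -0.11 without Vehicle 4 to 0.15 without Vehicle 2). None of the 7 passed the adjustment, and 1 had an unadjusted exact p below 0.05. The exact test could not go below p = 0.0286, which Anxa5 to Anxa6 reached, and its adjusted p was still 0.2. A single ratio without overlap could therefore not pass the adjustment. That none passed does not show that the ratios were unchanged.

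S100 proteins that bind annexins had the largest share of calls among the pathway lists. Of the 5 tested, 3 were called higher (against 7.5% of all tested genes), 0 lower and 4 did not overlap between groups (against 24.7%), with a median log2 fold change of 0.78. S100a10, which forms a heterotetramer with annexin A2 at the plasma membrane, was 545, 668, 808 and 647 CPM in BAPN libraries, compared with 344.6, 420.3, 392 and 338 CPM with vehicle. The groups were well apart, at 667 ± 108 and 374 ± 39.4 CPM (log2 fold change 0.83, SE 0.15, edgeR FDR = 0.0149). S100a6, or calcyclin, a partner of several annexins, was 558, 582, 818 and 794 CPM in BAPN libraries, compared with 437, 434, 353 and 374 CPM with vehicle (log2 fold change 0.78, SE 0.16, FDR = 0.0215). S100a4, also known as fibroblast-specific protein 1 and made by fibroblasts and leukocytes, was 669, 665.9, 997 and 1108 CPM in BAPN libraries, compared with 356, 508, 415 and 379 CPM with vehicle. Its log2 fold change was 1.05 (SE 0.20, FDR = 0.0170). BAPN 3 held the highest S100a10 and S100a6 and BAPN 4 the highest S100a4, and no vehicle library reached a BAPN library in any of the 3. S100a11, a partner of annexin A1, was separated between groups but not called (594 ± 91.4 and 430.0 ± 13.5 CPM, log2 fold change 0.47, FDR = 0.0545), and S100b overlapped (log2 fold change -0.42, FDR = 0.503).

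**Figure D3:**
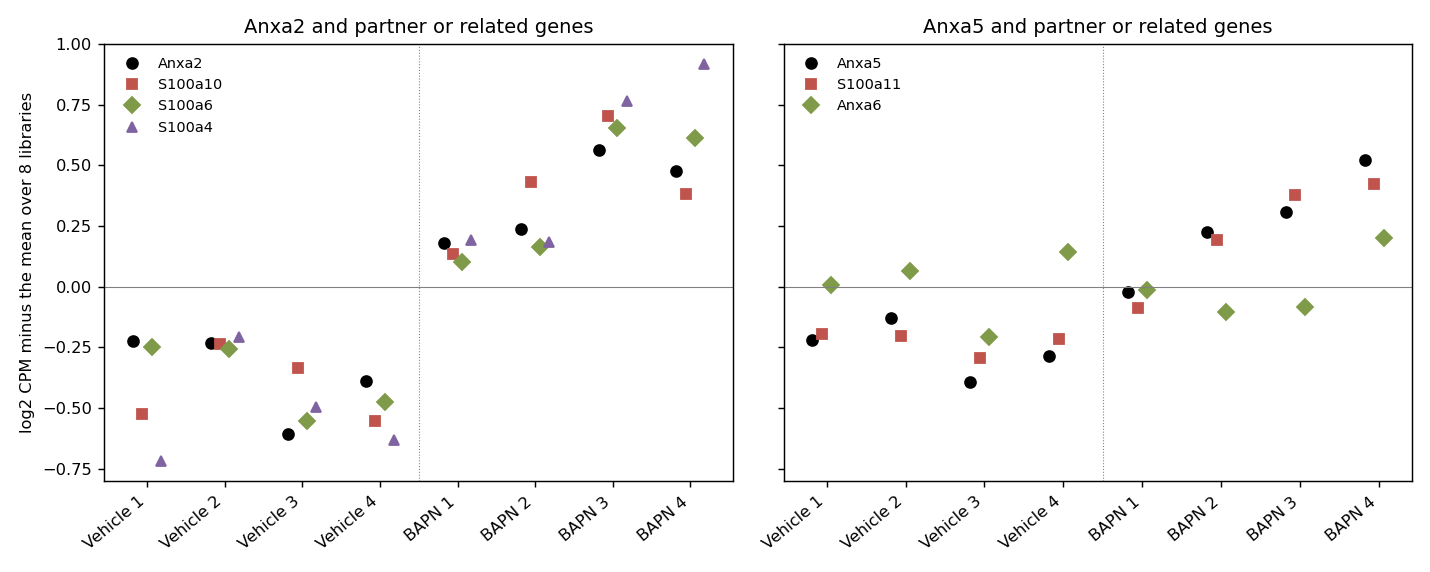
Log2 CPM minus the mean over the 8 libraries for Anxa2 with S100a10, S100a6 and S100a4 (left) and for Anxa5 with S100a11 and Anxa6 (right), 1 point per gene and library. Anxa2 and its 3 partners lie below 0 in every vehicle library and above 0 in every BAPN library; Anxa6 lies on both sides of 0 in each group.

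Likeness of pattern was measured as the root mean square difference of log2 CPM, each gene centred on its mean over the 8 libraries. By this measure the tested genes nearest to Anxa2 were S100a6 (0.0788), Fkbp2 (0.0840) and Farsb (0.0895). Nearest to Anxa5 were S100a11 (0.0718), Ddhd1 (0.0764) and Snx6 (0.0771). Nearest to Lgals1 were Eif5b (0.0973), Sbds (0.0989) and Ube2n (0.0990). Genes share the libraries and the group difference, so this is a description.

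The remaining annexins gave no call. Of 6 further annexin genes, 3 were tested: Anxa11 at 227 ± 26.4 and 213 ± 33.1 CPM (log2 fold change 0.09, edgeR FDR = 0.679), Anxa7 at 234 ± 39.3 and 177 ± 34.9 CPM (0.40, FDR = 0.135) and Anxa8 at 8.81 ± 3.29 and 6.20 ± 3.25 CPM (0.51, FDR = 0.383). DESeq2 called 0 of these 3, and 1 had an unadjusted edgeR p below 0.05, beside shares over all tested genes of 16.8% called by edgeR and 27.4% by DESeq2, so that no difference from the other genes can be read from 3 genes. Anxa9, Anxa10 and Anxa13 were at or near 0 CPM. Of 7 further galectin genes only Lgalsl was tested, at 40.1 ± 19.3 and 52.8 ± 24.1 CPM (log2 fold change -0.40, FDR = 0.483).

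The formyl peptide receptors through which annexin A1 signals (Fpr1, Fpr2, Fpr3 and Fpr-rs3) held 77 reads in total over the 8 libraries, too few to compare. Of the kinases and the phospholipase downstream, 0 of 3 were called by edgeR or DESeq2 and 0 had an unadjusted p below 0.05 (against 16.8% and 27.4% of all tested genes called); Mapk3 stood at 206 and 184 CPM (log2 fold change 0.16, FDR = 0.506). Glucocorticoids induce Anxa1, and of 8 tested genes for the glucocorticoid receptor and its targets, 2 were called higher (25%, against 7.5% of all tested genes) and 0 lower, with a median log2 fold change of 0.14. Tsc22d3, which encodes the glucocorticoid-induced leucine zipper, was 172 ± 17.8 and 126 ± 10.4 CPM without overlap (log2 fold change 0.45, SE 0.12, FDR = 0.0320). Fkbp5, a co-chaperone of the receptor, was called with overlapping groups, from 40.1 to 204 CPM in BAPN libraries and from 36.8 to 51.7 CPM with vehicle (log2 fold change 1.66, SE 0.43, FDR = 0.0261). Sgk1, which held the most reads of the list, was not called (log2 fold change 0.46, FDR = 0.290), and the receptor gene Nr3c1 was at -0.26 (FDR = 0.0977). Over the list the log2 fold change was above 0 for 4 genes and below 0 for 4. The targets Dusp1, Klf9 and Per1 were at -0.90, -0.52 and -0.17 and were not called by edgeR.

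Among genes of membrane repair and caveolae, where annexins act at torn membranes, 13 were tested, 1 was called higher and 4 lower (against 9.25% of all tested genes), with a median log2 fold change of -0.59. All 4 lower genes (Cavin1, Cavin2, Cavin3 and Ehd2) belong to caveolae, and this median pools caveolar genes with repair genes. The caveolin genes Cav1 (log2 fold change -0.65, edgeR FDR = 0.0921) and Cav2 (-0.66, FDR = 0.0967) overlapped between groups and were not called. Cavin2 was 27.1 ± 4.88 CPM in BAPN libraries, compared with 59.2 ± 18.3 CPM with vehicle (log2 fold change -1.13, edgeR FDR = 0.0155). Cavin1, the core of the coat, was 458 ± 53.8 and 933 ± 265 CPM (-1.03, FDR = 0.0177). Ehd2, an ATPase at the neck, was 151 ± 33.6 and 334 ± 124 CPM (-1.15, FDR = 0.0244), and Cavin3 was 129 ± 22.3 and 194 ± 37.3 CPM (-0.59, FDR = 0.0478). Over the whole list 6 of 13 genes did not overlap between groups, against 24.7% of all tested genes, these 4 among them. Pdcd6, a calcium sensor that recruits repair proteins, was higher at 106 ± 12.3 against 71.2 ± 6.51 CPM (log2 fold change 0.58, FDR = 0.0170). Ahnak, a giant scaffold protein bound by the annexin A2 and S100A10 complex and the gene with the most reads in the list, was at 2426 ± 359.7 and 2419 ± 363.5 CPM (log2 fold change 0.00, FDR = 0.990).

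Phosphatidylserine, the lipid bound by annexin A5, is exposed and read through the products of a set of 16 tested genes. Of these, 0 were called higher and 2 lower (12.5%, against 9.25% of all tested genes), with a median log2 fold change of -0.29. Stab1, a scavenger receptor for phosphatidylserine on macrophages and sinusoidal endothelium, was 57.2 ± 18.3 and 147 ± 33.1 CPM (log2 fold change -1.36, edgeR FDR = 0.0127). Gas6, the bridging ligand of the TAM receptors and the gene with the most reads in the list, was not called (1173 ± 85.9 and 1711 ± 408 CPM, -0.54, FDR = 0.0883). Groups did not overlap for 7 of the 16 genes, against 24.7% of all tested genes. Among them the 3 TAM receptors missed the threshold, with Mertk at a log2 fold change of 0.79 (FDR = 0.0699), Axl at -0.55 (FDR = 0.0536) and Tyro3 at -0.65 (FDR = 0.0899).

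Galectin partners and receptors gave 1 call in 17 tested genes (5.88%, against 16.8% of all tested genes), with a median log2 fold change of 0.36. Havcr2, which encodes the galectin-9 receptor Tim-3, was higher at 4.84 ± 1.59 against 2.20 ± 0.464 CPM (log2 fold change 1.14, SE 0.37, edgeR FDR = 0.0365). Its base mean of 112 passed the minimum of 100 through the BAPN libraries, since its vehicle level alone would lie below it. Itgb1, the β1 integrin to which galectin-1 and galectin-3 bind, held the most reads, at 1118 ± 123 and 1000.4 ± 176 CPM (0.16, FDR = 0.521). Of 12 enzymes that build galectin ligands on glycans, 0 were called by edgeR or DESeq2 and 0 had an unadjusted p below 0.05, with a median log2 fold change of -0.02 and the sialyltransferase St3gal1 at 206 and 205 CPM. Over all pathway lists 13 of 78 tested genes were called, 7 higher and 6 lower, which is 16.7% and close to the share over all tested genes.

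**Figure D4:**
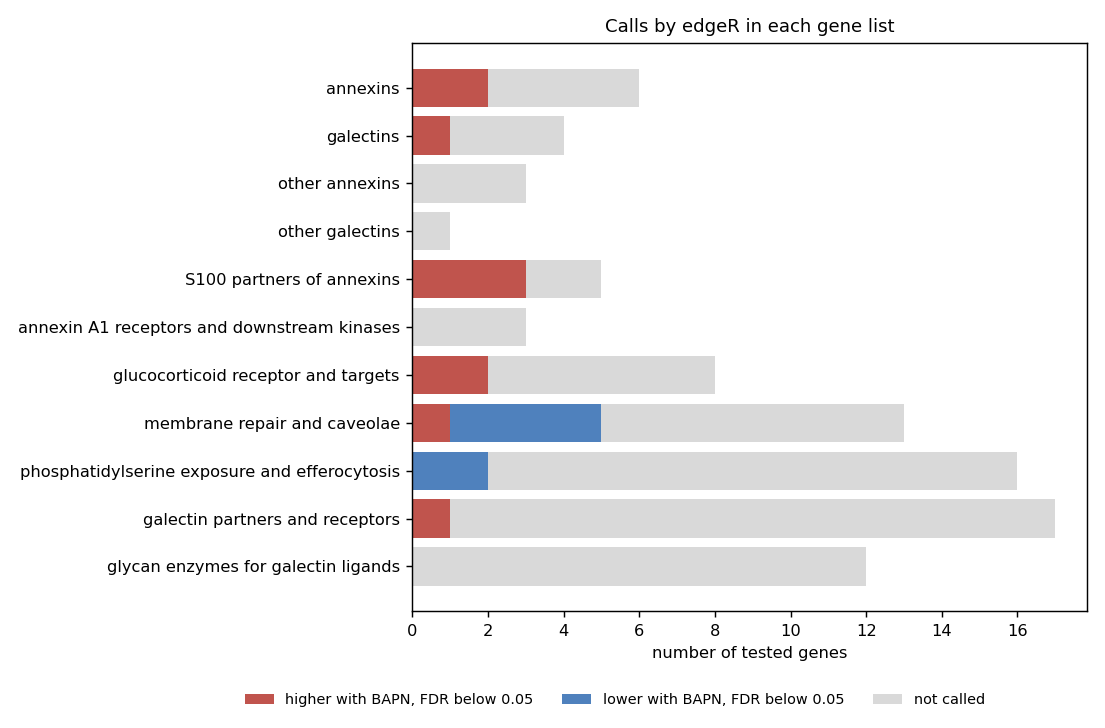
Number of tested genes in each list, split into genes called higher with BAPN, called lower and not called (edgeR, FDR below 0.05). The S100 list has 3 of 5 genes called higher and the glycan enzyme list 0 of 12 called. The membrane repair and caveolae list has 4 of 13 called lower, which are the caveolar genes Cavin1, Cavin2, Cavin3 and Ehd2.

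In RNA of a whole vein, fewer cells of a type and less RNA per cell cannot be told apart. Of 13 macrophage markers 1 was called by edgeR (Aif1, higher), 7.69% against 16.8% of all tested genes, and 3 by DESeq2, against 27.4%. The log2 fold change was above 0 for 12 of the 13, against 51.6% of all tested genes, and the median was 0.54. Their summed level was 34176, 37192, 47157 and 49099 CPM in BAPN libraries, compared with 21599, 29742, 21904 and 8124 CPM with vehicle. BAPN 4 had the highest and Vehicle 4 the lowest value of this sum, and the same libraries had the highest and lowest Lgals3. Lyz2 gave most of the reads of the sum in every library but Vehicle 4, and without it the groups overlapped, from 8105 to 14127 CPM in BAPN libraries and from 4263 to 10259 CPM with vehicle. Against 9.25% of all tested genes called lower, 6 of 9 smooth muscle markers were lower (summed level 1772 to 4494 against 3517 to 6436 CPM), 3 of 8 endothelial markers (496 to 664 against 849 to 1584 CPM), and 2 of 9 fibroblast markers (13469 to 21233 against 17252 to 46722 CPM, of which Col3a1 alone held 9916 to 16549 and 13359 to 39548 CPM). The endothelial sums did not overlap between groups, and the smooth muscle and fibroblast sums did. Neutrophil markers stayed low in all libraries, between 19.7 and 66.6 CPM for the 9 genes summed, of which 2 were tested and 0 were called by edgeR or DESeq2 or had an unadjusted p below 0.05. The part of these markers in the annexin, galectin, S100 and caveolar values was not tested.

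**Figure D5:**
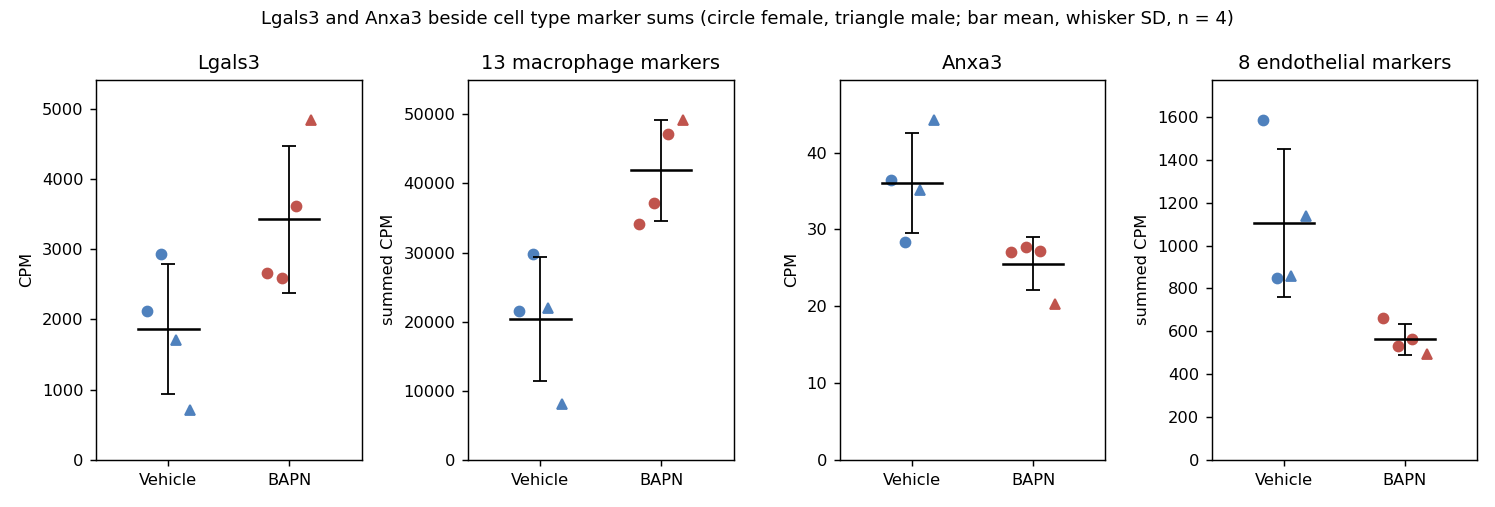
CPM of Lgals3 and Anxa3 beside the summed CPM of 13 macrophage and 8 endothelial markers, 1 point per library (circles females, triangles males), with the group mean and SD (n = 4 per group) on linear axes starting at 0. BAPN 4 and Vehicle 4 are the highest and lowest points for both Lgals3 and the macrophage sum; the endothelial sum and Anxa3 are lower in every BAPN library than in any vehicle library.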

How the data were processed

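Outflow veins of 8 rats (4 BAPN, 4 vehicle, day 21) were profiled by sequencing of total RNA depleted of ribosomal RNA. Groups, replicate numbers and sex came from the labels. The authors deposited raw counts of reads per gene for each library, without normalization. The submitters' processing notes name bcl2fastq 2.17, Trim Galore and STAR. The counter, the strand setting and the genome build are not given in the sources used here, so coordinates come from RefSeq GRCr8 alone. Total counts were 45039451 to 52241007 (BAPN) and 19548203 to 22442050 (vehicle), with no batch named. Per the study's methods, separate rats were set aside for sequencing, so replicates are animals.

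The minimum was a base mean of 100, the mean over libraries after DESeq2 1.42.0 size factors. The 11682 genes left were fitted in edgeR 4.0.16 under R 4.3.3 (TMM, quasi-likelihood, no covariate), and p-values were adjusted over all of them (Benjamini-Hochberg, FDR). Standard errors are those of limma-voom (limma 3.58.1). A prior count of 2 entered log2 CPM. Exact two-sided permutation tests used all 70 arrangements. The code was tested on simulated data. All pairs of libraries within a group differed beyond counting noise (chi-square per degree of freedom 68.6 or more).

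The 10 genes and all lists were chosen with earlier results of these data known. Named were all 10 genes, the called genes of each pathway list (up to 4) and its gene with the most reads, and the 3 nearest genes of each called member. Acta2, Vwf, Lyz2, Col3a1, Cav1, Cav2, S100a11, S100b, Anxa7, Anxa8, Lgals5, Nr3c1, Mertk, Axl, Tyro3, Cd4 and Xbp1 were named after their values were seen. So were Acta1, Dusp1, Klf9, Per1, Cd3d, Cd3e and Cd3g, and the macrophage sum without Lyz2 was added likewise. Alternatives were DESeq2, other scalings and filters, sex as a covariate, females alone, thinning to equal totals, the replicate number as a block, and leaving out each library. Chmp4b, Timd4, Adgrb1, Calcoco2, Pecam1, Trac, Myh1, Myh2 and Trp63 were not analysed here, since no gene of that name was found. Of the phosphatidylserine list, 1 called gene is not reported here.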

Additional observations from a re-analysis of the deposited data

Results flagged for a closer look

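Anxa3 in the BAPN group had 1 library far from the others: BAPN 4 held 20.3 CPM and the nearest library 27.1 CPM, a gap of 0.918 of the range of the group and beyond Dixon's 95% critical value for 4 samples. Both groups of the 10 genes were examined, 20 groups in all, of which chance alone marks about 1 in 20. The edgeR test of a difference in treatment effect between the sexes gave a smallest FDR of 0.344 over these genes (Lgals3), but the BAPN group held 1 male, so this test cannot show that the sexes responded alike.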

How the results depend on the processing

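The number of called annexins and galectins was 3 in the reported fit, 6 with DESeq2, 0 among females alone, 0 with the replicate block, and 0 to 4 when 1 library was left out (0 without BAPN 3, BAPN 4 or Vehicle 1, 1 without Vehicle 3). Over all genes the 1957 calls became 3202 with DESeq2, 930 with sex as a covariate, 89 among females alone, 556 with the replicate block and 397 to 2215 with 1 library left out, fewest without Vehicle 1. The 13 calls of the pathway lists became 23, 8, 1 and 3 in the same 4 alternatives and 2 to 18 with 1 library left out. Replicate numbers did not pair the samples: correlations of deviations between libraries of the same number were 0.0944, -0.265, 0.269 and -0.140. The exact tests of the 7 ratios could not go below p = 0.125 with the replicate block and 0.0286 in the reported comparison, so that 0 ratios passing the adjustment in these designs says little about stability. Anxa2 and Lgals1 were called in 8 of 10 alternatives other than leaving out a library and lost the call among females alone and with the block. Anxa5 was called in 2 of 10 (DESeq2 and upper quartile scaling), with FDR = 0.0520 after thinning to equal totals. None of the 3 called genes changed direction, while Anxa6, whose value lay at 0, kept its sign in 7 of 10. With total counts in place of TMM, 504 genes were called higher and 1161 lower, so 30.3% higher in place of 44.8%.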

Other observations

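The treatment difference in males exceeded that in females by 1.77 on the log2 scale for Lgals3 (edgeR interaction FDR = 0.344) and by 0.81 for Anxa4 (FDR = 0.422), and it was lower by -0.71 for Anxa3 (FDR = 0.391). The only BAPN male was BAPN 4, so none of these values has a replicate on that side. Markers of adaptive immune cells, which are targets of galectin-1 and galectin-9, included 2 of 8 tested T cell markers called higher, against 7.5% of all tested genes. Of 8 B cell and plasma cell markers 4 were under the minimum, and the called Mzb1 and Cd79b passed it through the BAPN libraries (vehicle means 0.87 and 0.91 CPM), so their count is no measure of the list. The log2 fold change was above 0 for 7 of the 8 T cell markers. Of these, Cd3d and Cd3g passed the minimum through the BAPN libraries (vehicle means 2.42 and 2.52 CPM), so this count is no measure of the list. Cd4, which held most of the reads of the list, was at -0.07 (334 and 350 CPM). It stood far above Cd3e (14.0 and 5.28 CPM), and which cells gave its reads was not tested. The 4 tested B cell and plasma cell markers all overlapped between groups, and Xbp1, which other cells also express, was at 135 and 121 CPM (0.15). BAPN 4 held the lowest sum of the B cell and plasma cell list, at 123 CPM. Adipocyte markers gave 1 call lower of 5 tested, against 9.25% of all tested genes. DESeq2 called 4 of these 5, against 27.4% of all tested genes. An unadjusted edgeR p below 0.05 was found for 4 of the 5 and for 4184 of all 11682 tested genes. The median log2 fold change of the 5 was -1.43, with 4 genes below 0 and 1 above. Mast cell markers gave 0 calls of 2, skeletal muscle markers 0 of 2 and Schwann cell and nerve markers 0 of 7, against 16.8% of all tested genes in either direction. Of the keratinocyte markers only Dsg3 passed the minimum, through the BAPN libraries and with overlapping groups, and the summed list was 21.9 and 24.6 CPM in BAPN 1 and BAPN 2 and 0.741 to 5.26 CPM in the other 6 libraries. DESeq2, which called 27.4% of all tested genes, called 0 of the mast cell, 1 of the skeletal muscle and 0 of the Schwann cell markers, the 1 being Acta1, which passed the minimum through the vehicle libraries (2.28 and 12.98 CPM). Unadjusted edgeR p-values below 0.05 numbered 0, 1 and 1.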
